A study of Mus musculus with 6 samples.

Results

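The lysosome of a macrophage is acidified by the vacuolar ATPase, and the same membrane is the platform on which the kinase complex mTORC1 reads nutrients. The genes described here encode that machinery: 35 listed genes, taken by name, of the 29957 genes in the table. They comprise 7 subunits of the membrane-embedded V0 sector of the pump, 8 subunits of its cytosolic V1 sector, 2 accessory subunits, 5 lysosome membrane proteins, 10 genes of the Ragulator, Rag GTPase and folliculin docking machinery, and 3 transcription factors of the MiT family. All 35 were found. The genes are chosen by name and role and not by a threshold on a measured value, though with earlier results of these data known. RNA was sequenced in 6 libraries of bone marrow-derived macrophages (BMDMs, macrophages grown in culture from mouse bone marrow) from wild-type mice. In 3 of them the cells received LPS+PA-BSA: lipopolysaccharide, a bacterial cell wall ligand of TLR4, with palmitic acid carried on bovine serum albumin. The other 3 libraries are labelled control. The study's title names activation of the Nlrp3 inflammasome by free fatty acid, and a group given LPS by itself was not analysed here; the parts played by LPS and by palmitate cannot be told apart. The labels give no dose, time or age, and do not say whether controls received albumin, nor whether replicates are different mice or dishes. The p-values therefore describe the scatter among these 6 libraries, part or all of which may be technical.

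V1 hydrolyses ATP and turns a rotor that drives protons through V0 into the lysosome lumen, and detachment of V1 from V0 switches the pump off. When amino acids are plentiful, the pump and Ragulator promote loading of the Rag GTPases, which then recruit mTORC1 to the lysosome surface, where Rheb activates it. Folliculin acts on RagC and RagD, and through them mTORC1 keeps TFEB, TFE3 and MITF phosphorylated and out of the nucleus. Free in the nucleus, these factors bind E-boxes of the sequence CACGTG in promoters of lysosomal genes, many of them subunits of the pump, in the so-called CLEAR network.

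Levels are FPKM (fragments per kilobase of transcript per M, or mega, fragments), a value per transcript length, and means are given ± SD over the 3 libraries of a group. Differences are LPS+PA-BSA minus control on the log2(FPKM + 1) scale with their standard error (SE), tested with limma across the 11364 genes that reached 1 FPKM in at least 3 libraries, with Benjamini-Hochberg adjustment over all of them and a threshold of 0.05. "Rose" and "fell" are used of genes past that threshold. Depths estimated from the steps of low FPKM values ran from 13.9 to 21.1 M fragments. Il1a, Il1b, Tnf, Nos2 and Cxcl10, genes that macrophages induce on LPS, were higher in LPS+PA-BSA in 5 of 5 cases, by 3.46 to 6.71 on the log2 scale. The 9 macrophage markers were all found, summing to 12076 to 14328 FPKM in LPS+PA-BSA libraries and 18906 to 21966 FPKM in controls. Of the other cell types, 6 stromal markers summed to 49.1 to 60.4 FPKM in LPS+PA-BSA libraries and 310 to 388 FPKM in controls, and 6 neutrophil markers to 59.4 to 75.6 FPKM in LPS+PA-BSA libraries and 10.4 to 26.4 FPKM in controls, with Ly6g and Mpo under 1 FPKM in every library. Markers of B cells summed to 1.15 to 1.24 FPKM in LPS+PA-BSA libraries and 8.54 to 10.3 FPKM in controls, with Cd79a, Ms4a1 and Pax5 under 1 FPKM in every library. Those of T and NK cells summed to 0.998 to 1.37 FPKM in LPS+PA-BSA libraries and 6.34 to 7.42 FPKM in controls, with Cd3g, Cd8a, Nkg7 and Klrb1c under 1 FPKM in every library. The part of these shifts in the results below was not tested. In bulk RNA, fewer cells of a type and less RNA per cell cannot be told apart.

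The libraries of a group differed among themselves along the GC content of transcripts. Against the mean of its group, a library's log2 level moved per 10% of GC content by -0.19 in LPS+PA-BSA 1, 0.07 in LPS+PA-BSA 2 and 0.12 in LPS+PA-BSA 3, and by 0.13 in control 1, 0.17 in control 2 and -0.30 in control 3. LPS+PA-BSA 1 and control 3 thus form a set of 2 libraries in which GC-rich transcripts are low, and the remaining libraries a set of 4. Across the 35 genes, GC content and the departure of control 3 from the other controls had a Pearson r of -0.73 and a Spearman rho of -0.86. For LPS+PA-BSA 1 against its group these were -0.64 and -0.70 (a description over genes that share their libraries, with no test). GC-rich members are low in control 3 for their group, Atp6v0c and Lamtor4 most of all, and differences within each set and after removal of the GC and length trend from each library (GC removal) are given below for the tested members described library by library. The difference between groups also ran along GC content. Its median was 0.095 in tested genes around 40.3% GC and -0.68 in those around 57.8%. GC removal takes each library's trend against the mean of all libraries, so it removes this trend between groups as well. What it takes away cannot be split into treatment and library differences.

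**Figure D1:**
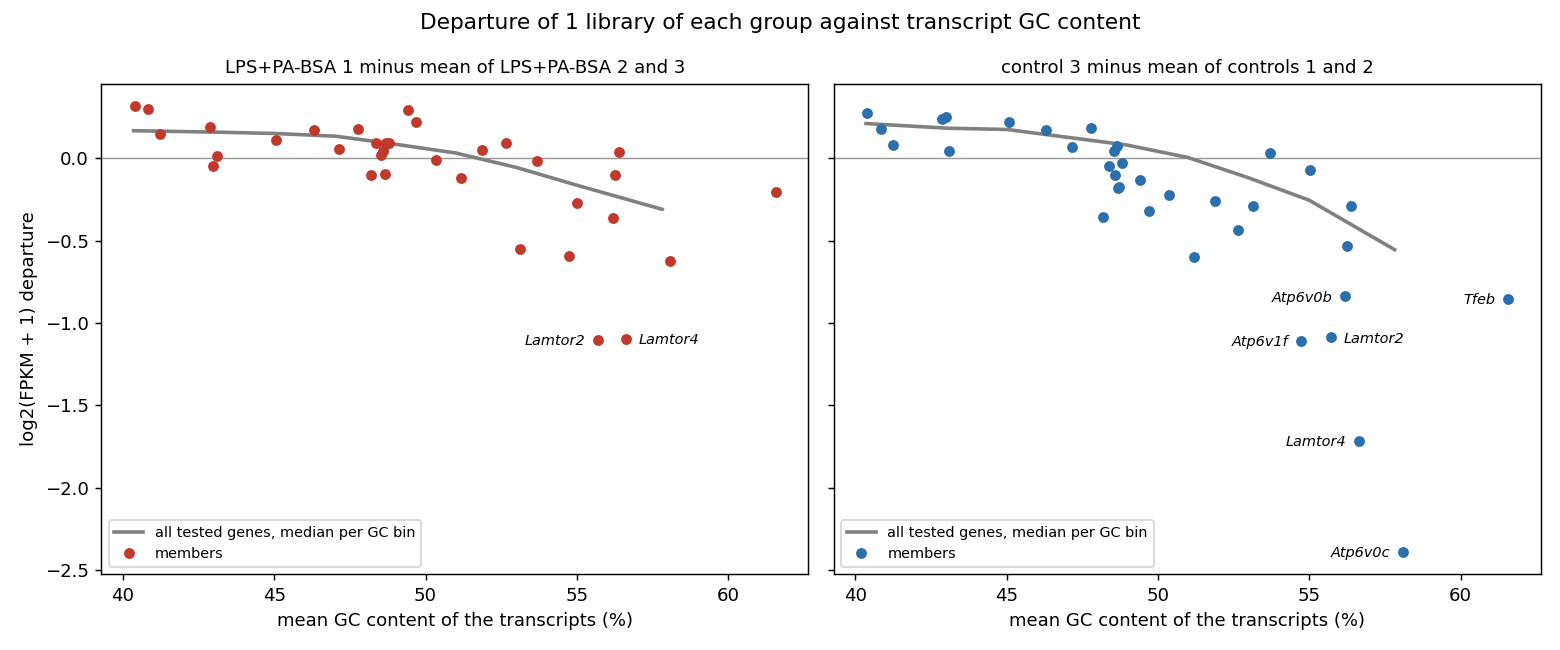
Departure of LPS+PA-BSA 1 from the mean of LPS+PA-BSA 2 and 3 (left) and of control 3 from the mean of controls 1 and 2 (right), on the log2(FPKM + 1) scale, against the mean GC content of each gene's transcripts in percent. Each point is 1 of the 35 genes and the grey line is the median of all tested genes per GC bin; most GC-rich members fall below 0 in both panels, Atp6v0c lowest at -2.39 in control 3.

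Among the 34 tested genes of the machinery, 4 rose and 13 fell under LPS+PA-BSA and 17 did not pass the threshold. That is 11.8% called higher, where 22.2% of all tested genes were, and 38.2% called lower, where 32.9% of all tested genes were. Called either way were 50.0% of the members and 55.1% of all tested genes, so the list as a whole passed the threshold about as often as tested genes in general. The median difference was -0.20 for the members and -0.11 for all tested genes. With library medians made equal, which puts the median of all tested genes at 0.06, the members split into 9 called higher and 8 called lower. All tested genes shifted in the same way under that setting, with more called higher than lower, so the changed balance is not particular to the members. The groups did not overlap in 5 tested members with LPS+PA-BSA above (14.7%, against 26.3% of all tested genes) and in 14 with LPS+PA-BSA below (41.2%, against 36.9%); in either direction 63.2% of all tested genes did not overlap. In all 17 called members the groups did not overlap. Their sign was therefore bound to be the same within the set of 4 and within the set of 2 libraries, and this agreement adds no support. After the GC and length trend was removed 16 kept their call. Then 5 members were called higher (14.7%, against 28.4% of all tested genes) and 13 lower (38.2%, against 31.6%). The authors' deposited table marks 5 of the 35 as significant, Atp6v0a1, Atp6v0d2, Lamtor2, Lamtor4 and Tfeb, all lower (14.3%, against 14.6% of all its rows).

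**Figure D2:**
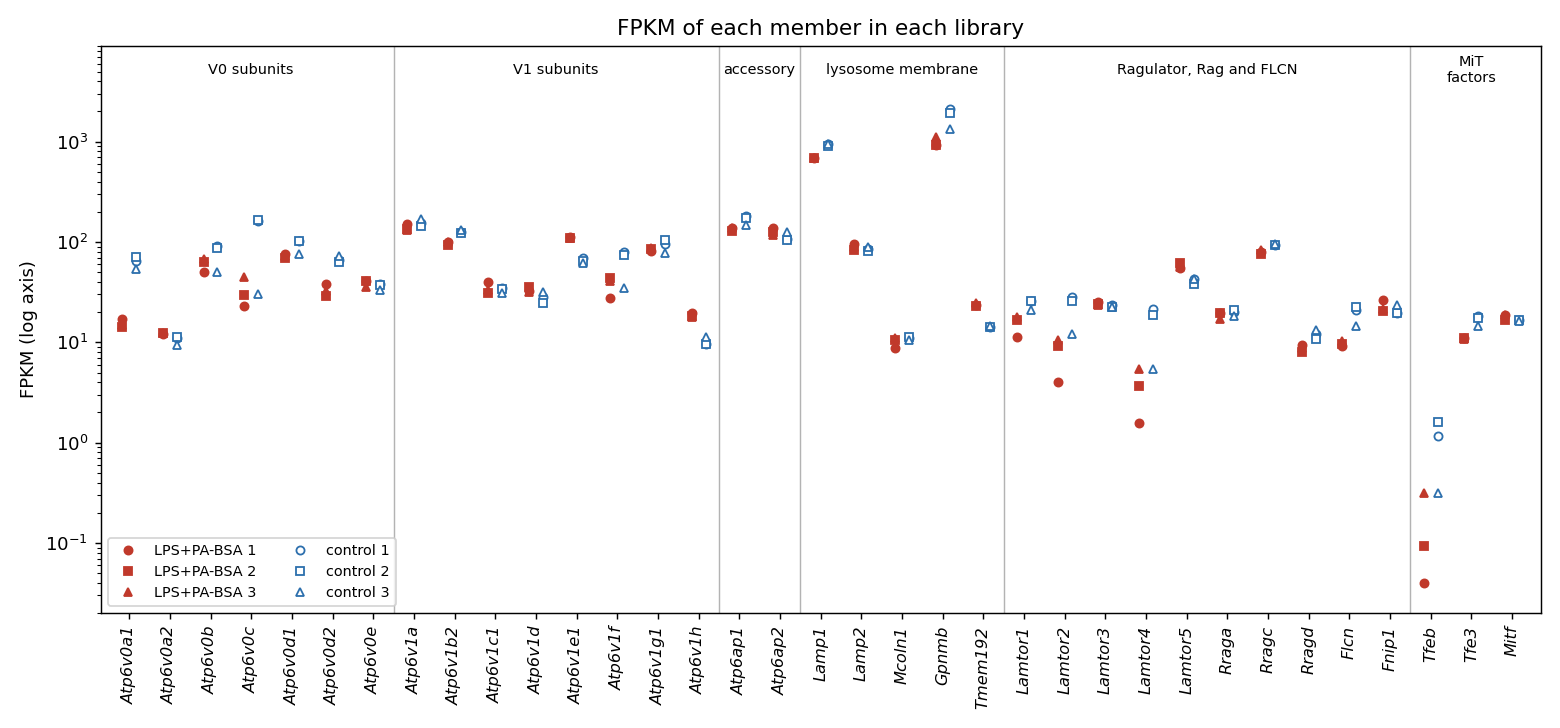
FPKM of each of the 35 genes (log axis) in each library, ordered by role, with LPS+PA-BSA libraries as filled red symbols and controls as open blue symbols. Gpnmb and Lamp1 lie highest, Tfeb at or under 1.60 FPKM, and control 3 (open triangle) sits apart from the other controls in Atp6v0c, Atp6v1f, Lamtor2, Lamtor4 and Tfeb.

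In the V0 sector 2 of 7 subunits fell, none rose and 5 did not pass the threshold (median -0.37). Among all tested genes 32.9% fell and 22.2% rose (median -0.11). Both V0 subunits that fell are isoforms with a paralog in the same list. Atp6v0a1 encodes an a subunit, the part of V0 that carries the proton half-channels and directs the pump to its compartment (chromosome 11, 101009452 to 101063719, plus strand, mm10). It had 17.3, 14.3 and 15.0 FPKM in LPS+PA-BSA libraries 1, 2 and 3, against 64.4, 70.9 and 54.0 FPKM in controls 1, 2 and 3. Every control lay above every LPS+PA-BSA library, and the control mean was 4.07 times that of LPS+PA-BSA. The difference was -1.95 (SE 0.12, adjusted p = 4.1e-05), with -2.13 within the set of 4 libraries, -1.59 within the set of 2 and -1.91 after GC removal. Atp6v0d2 encodes the inducible d subunit, best known from osteoclasts, where it serves cell fusion and acid secretion, and also made by macrophages (chromosome 4, 19876841 to 19922605, minus strand). Its level was 37.8, 29.1 and 32.2 FPKM in LPS+PA-BSA libraries, against 66.0, 63.0 and 73.1 FPKM in controls. The groups lay well apart. The difference was -1.01 (SE 0.12, adjusted p = 0.000504), with -1.05 and -0.93 within the sets of 4 and 2 and -1.26 after GC removal. Osteoclast markers summed to 30.1 to 33.6 FPKM in LPS+PA-BSA libraries and 23.4 to 39.9 FPKM in controls, and 4 of the 7, Calcr, Dcstamp, Ocstamp and Oscar, were under 1 FPKM in every library.

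The ubiquitous d subunit gene Atp6v0d1 averaged 72.2 ± 3.34 FPKM in LPS+PA-BSA and 94.3 ± 15.6 FPKM in control, without overlap (difference -0.37, adjusted p = 0.0522). The difference was -0.54 within the set of 4 libraries and -0.02 within the set of 2. Atp6v0d1 was called lower under quantile normalization (-0.55), with a term for the 2 sets and without control 3, but not after GC removal (-0.28). Atp6v0a2, whose a subunit is known from endosomes and the Golgi, averaged 12.3 ± 0.0843 FPKM in LPS+PA-BSA and 10.6 ± 1.01 FPKM in control, without overlap (difference 0.20, adjusted p = 0.0961, and called higher after GC removal at 0.24). Atp6v0b and Atp6v0e, a rotor ring subunit and a small membrane subunit, had adjusted p-values of 0.338 and 0.392: Atp6v0b averaged 60.3 ± 8.71 FPKM in LPS+PA-BSA and 76.6 ± 23.3 FPKM in control, and Atp6v0e 38.9 ± 3.07 FPKM in LPS+PA-BSA and 36.2 ± 2.65 FPKM in control.

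Atp6v0c, the proteolipid that makes up most of the rotor ring and carries the protons, showed the largest spread and is given here in full because of it, a choice made after its values were seen. It had 23.2, 29.6 and 44.5 FPKM in LPS+PA-BSA libraries, against 163, 166 and 30.6 FPKM in controls 1, 2 and 3. Controls 1 and 2 stood far above all others, while control 3 lay among the LPS+PA-BSA libraries. The difference of -1.56 (SE 0.66) had an adjusted p of 0.0842. It was -2.15 within the set of 4 libraries and -0.39 within the set of 2, and shrank to -0.95 after GC removal (adjusted p = 0.137). It passed the threshold without control 3 (-2.36) and with a term for the 2 sets (adjusted p = 0.0142). A gene named as its pseudogene, Atp6v0c-ps2, reached 38.3 FPKM in LPS+PA-BSA and 73.6 FPKM in control libraries; how the authors' counting split reads between such copies was not tested, and the value of Atp6v0c is uncertain to that extent.

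The shares of paralogs within their summed FPKM give the isoform balance of the pump, a value in which scaling of a library cancels. Atp6v0a1 made up 17.2%, 13.2% and 12.5% of Atp6v0a1, Atp6v0a2 and Tcirg1 together in LPS+PA-BSA libraries, against 39.3%, 41.5% and 44.7% in controls. Its mean share was 14.3 ± 2.51% in LPS+PA-BSA and 41.8 ± 2.71% in control, a difference of -27.5 percentage points. Tcirg1, the a3 subunit of lysosomes and osteoclasts and not one of the 35 genes, made up 74.5 ± 3.37% in LPS+PA-BSA and 51.1 ± 3.29% in control. Its own level averaged 81.8 FPKM in LPS+PA-BSA and 78.2 FPKM in control (adjusted p = 0.726), although after GC removal it was called higher by 0.67. Atp6v0a2 made up 11.3 ± 0.958% in LPS+PA-BSA and 7.06 ± 0.662% in control. Atp6v0d2 made up 33.4%, 29.8% and 30.7% of Atp6v0d1 and Atp6v0d2 together in LPS+PA-BSA libraries, against 39.0%, 37.9% and 48.9% in controls, and all controls lay above all LPS+PA-BSA libraries. These 4 shares did not overlap between groups, and each had p = 0.1 in the exact permutation test (two-sided), the smallest that 3 against 3 libraries can give. GC content differs between paralogs, and the difference of the Atp6v0d2 share was -8.18 percentage points within the set of 4 libraries and -15.5 within the set of 2.

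**Figure D3:**
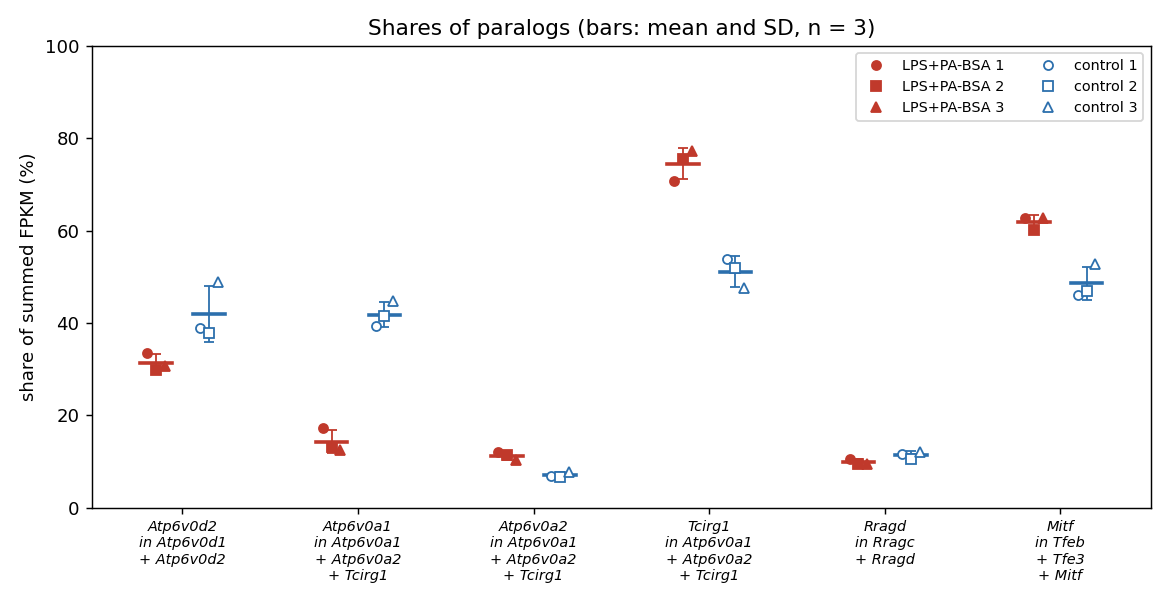
Share of summed FPKM, in percent, taken by 1 paralog of each group in each library, LPS+PA-BSA as filled red and control as open blue symbols, with the mean and SD (n = 3) as bars. Atp6v0a1 lies at 12.5% to 17.2% in LPS+PA-BSA and 39.3% to 44.7% in control, and Mitf at 60.2% to 62.8% in LPS+PA-BSA and 46.1% to 52.7% in control.

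In the V1 sector 2 of 8 subunits rose, 1 fell and 5 did not pass the threshold (median -0.03). Among all tested genes 22.2% rose and 32.9% fell (median -0.11). The V1 subunits that rose were Atp6v1e1 and Atp6v1h, while Atp6v1c1 and Atp6v1g1, given below among the stalk and rotor subunits, did not pass the threshold. Atp6v1e1 encodes a subunit of the peripheral stalks that hold the catalytic head in place (chromosome 6, 120794305 to 120822793, minus strand). It had 113, 111 and 109 FPKM in LPS+PA-BSA libraries, against 68.6, 65.1 and 62.3 FPKM in controls. The groups were tight and far apart, with a difference of 0.76 (SE 0.07, adjusted p = 0.000208). Atp6v1h encodes a regulatory subunit that couples ATP hydrolysis to V0 (chromosome 1, 5070018 to 5162529, plus strand). Its level was 19.6, 18.2 and 18.0 FPKM in LPS+PA-BSA libraries, against 9.65, 9.59 and 11.4 FPKM in controls. All LPS+PA-BSA libraries lay above all controls, with a difference of 0.81 (SE 0.09, adjusted p = 0.00048). Both kept their calls without any single library and after GC removal, at 0.65 for Atp6v1e1 and 0.68 for Atp6v1h. Within the sets of 4 and 2 libraries the differences were 0.71 and 0.85 for Atp6v1e1, and 0.85 and 0.74 for Atp6v1h. Slc25a18 and Rgs20, which overlap them on the other strand, stayed under 1 FPKM in every library.

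Atp6v1b2, the B subunit of the catalytic head in most cells, fell to 98.0 ± 3.80 FPKM in LPS+PA-BSA, against 126 ± 3.46 FPKM in control (difference -0.36, adjusted p = 0.00515), a call that ended with equal library medians. Its partner Atp6v1a, the catalytic A subunit, averaged 139.8 ± 10.3 FPKM in LPS+PA-BSA and 156 ± 12.4 FPKM in control (difference -0.16, adjusted p = 0.190, and called lower after GC removal at -0.18). Atp6v1c1, Atp6v1d, Atp6v1f and Atp6v1g1, which encode further stalk and rotor subunits, had adjusted p-values of 0.762, 0.114, 0.138 and 0.463. Their means were 34.6 ± 4.45, 33.2 ± 2.02, 37.6 ± 8.67 and 84.5 ± 3.64 FPKM in LPS+PA-BSA, in that order of genes, against 33.5 ± 1.86, 28.3 ± 3.55, 62.4 ± 24.0 and 91.8 ± 13.5 FPKM in control. Atp6v1f resembled Atp6v0c in its spread: control 3, at 34.8 FPKM, lay within the range of the LPS+PA-BSA libraries, and the difference of -0.66 passed the threshold only with control 3 left out or with a term for the 2 sets of libraries, among the alternatives tried.

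Of the accessory subunits, Atp6ap1, which guides assembly of V0 in the endoplasmic reticulum, had 138, 129 and 139 FPKM in LPS+PA-BSA libraries, against 180.3, 175 and 148 FPKM in controls. It fell by 0.30 (SE 0.10, adjusted p = 0.0377), with control 3 close to the LPS+PA-BSA libraries, and the call ended without 5 of the 6 libraries, control 3 being the exception. The difference was -0.41 within the set of 4 libraries, -0.09 within the set of 2 and -0.27 after GC removal. Atp6ap2, the prorenin receptor, averaged 128 ± 10.4 FPKM in LPS+PA-BSA and 113 ± 11.2 FPKM in control (difference 0.18, adjusted p = 0.180).

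The lysosome membrane proteins include the most abundant transcripts of the 35 genes, Gpnmb and Lamp1. Of the 5, 1 rose, 2 fell and 2 did not pass the threshold, where 22.2% of all tested genes rose and 32.9% fell. Gpnmb, a transmembrane glycoprotein of lysosomes and melanosomes that lipid-laden macrophages make in quantity, had 932, 929.7 and 1106 FPKM in LPS+PA-BSA libraries, against 2098, 1952 and 1333 FPKM in controls (chromosome 6, 49036546 to 49070929, plus strand). Control 3 was the lowest control and still above every LPS+PA-BSA library. The difference was -0.84 (SE 0.19, adjusted p = 0.00935), with -0.996 within the set of 4 libraries and -0.52 within the set of 2 and -0.77 after GC removal. Under quantile normalization it was -0.46 and no longer called (adjusted p = 0.0544). The melanocyte genes Tyr, Dct, Mlana and Pmel, listed because melanocytes also use Gpnmb and Mitf, were under 1 FPKM in all 6 libraries. Lamp1, a heavily glycosylated protein that lines the lysosome membrane, fell with little spread: its level was 688 ± 5.68 FPKM in LPS+PA-BSA, against 937 ± 33.1 FPKM in control (difference -0.45, SE 0.07, adjusted p = 0.00269; -0.44 and -0.46 within the sets of 4 and 2, -0.55 after GC removal), and the call ended with equal library medians. Its close relative Lamp2, needed for chaperone-mediated autophagy, averaged 89.3 ± 6.50 FPKM in LPS+PA-BSA and 85.3 ± 3.72 FPKM in control (difference 0.06, adjusted p = 0.541). Mcoln1, the calcium channel whose opening frees TFEB from mTORC1 control, averaged 10.1 ± 1.20 FPKM in LPS+PA-BSA and 11.0 ± 0.351 FPKM in control (difference -0.12, adjusted p = 0.343). Tmem192, a lysosome membrane protein used as a handle for pulling lysosomes out of cells, was the one that rose (chromosome 8, 64947185 to 64969033, plus strand). It had 23.5, 22.9 and 24.8 FPKM in LPS+PA-BSA libraries, against 14.2, 14.3 and 14.6 FPKM in controls. The groups stood apart with little spread (difference 0.69, SE 0.07, adjusted p = 0.000287), and the call held without any single library. The difference was 0.70 and 0.65 within the sets of 4 and 2 and 0.87 after GC removal.

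Of the 10 genes of the mTORC1 docking machinery 1 rose, 6 fell and 3 did not pass the threshold, with a median of -0.33. Of all tested genes 22.2% rose and 32.9% fell, and their median was -0.11. Of the 6 falls, those of Lamtor1, Lamtor2, Lamtor4 and Rragc ended when some single libraries were left out. Ragulator is a pentamer that anchors the Rag GTPases to the lysosome, and 3 of its subunits fell while 1 rose. Lamtor1, the lipid-anchored subunit that wraps around the others, had 11.4, 16.7 and 17.7 FPKM in LPS+PA-BSA libraries, against 25.7, 25.7 and 20.8 FPKM in controls (difference -0.64, SE 0.18, adjusted p = 0.0215). Lamtor2 had 4.04, 9.13 and 10.6 FPKM in LPS+PA-BSA libraries, against 28.4, 25.9 and 12.2 FPKM in controls (difference -1.38, SE 0.41, adjusted p = 0.0280). Lamtor4 had 1.55, 3.68 and 5.38 FPKM in LPS+PA-BSA libraries, against 21.5, 18.9 and 5.45 FPKM in controls (chromosome 5, 138255482 to 138259398, plus strand; difference -1.75, SE 0.55, adjusted p = 0.0329). In all 3 genes LPS+PA-BSA 1 was the lowest library of its group and control 3 the lowest of the controls, and for Lamtor4 control 3 almost met LPS+PA-BSA 3. The transcripts of Lamtor1, Lamtor2 and Lamtor4 have 53.1%, 55.7% and 56.6% GC, where the median of the 35 genes is 48.8%. Other members, such as Atp6v0c at 58.1%, are more GC-rich. Within the sets of 4 and 2 libraries the differences were -0.55 and -0.81 for Lamtor1, -1.38 and -1.39 for Lamtor2, and -1.95 and -1.34 for Lamtor4. After GC removal they were -0.49 for Lamtor1, -1.005 for Lamtor2 and -1.27 for Lamtor4, still called, at adjusted p-values of 0.0171, 0.0257 and 0.0313. The calls ended without control 1 or control 2 for all 3, and for Lamtor2 and Lamtor4 also without LPS+PA-BSA 1 or 2, where Lamtor4 ranged from -2.32 to -1.38 over the libraries left out and Lamtor2 from -1.75 to -1.01.

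Lamtor5 rose in the same complex, to 57.7 ± 3.53 FPKM in LPS+PA-BSA, against 40.9 ± 2.64 FPKM in control (difference 0.49, SE 0.08, adjusted p = 0.00331). Lamtor3, which pairs with Lamtor2 and is also a scaffold for MAP kinase signalling, averaged 24.4 ± 0.978 FPKM in LPS+PA-BSA and 22.9 ± 0.714 FPKM in control (difference 0.08, adjusted p = 0.342). Per length, Lamtor4 was the lowest Ragulator transcript and Lamtor5 the highest in both groups.

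Both Rag GTPases of the C and D pair fell. Rragc averaged 79.5 ± 3.04 FPKM in LPS+PA-BSA and 94.0 ± 1.63 FPKM in control (difference -0.24, adjusted p = 0.0238), and Rragd, a known target of the MiT factors, 8.73 ± 0.752 FPKM in LPS+PA-BSA and 12.1 ± 1.13 FPKM in control (difference -0.43, adjusted p = 0.0116). Equal library medians ended both calls, and leaving out LPS+PA-BSA 2, control 1 or control 2 ended that of Rragc. After GC removal Rragc differed by -0.47 and Rragd by -0.41. Rragd made up 9.89 ± 0.641% of Rragc and Rragd together in LPS+PA-BSA and 11.4 ± 0.793% in control, and the groups overlapped (exact permutation p = 0.2, two-sided). Rraga, their partner in the heterodimer, averaged 18.8 ± 1.54 FPKM in LPS+PA-BSA and 19.8 ± 1.47 FPKM in control (difference -0.07, adjusted p = 0.562). Flcn, folliculin, the GTPase-activating protein for RagC and RagD, fell (chromosome 11, 59791408 to 59810016, minus strand). It had 9.24, 9.67 and 10.4 FPKM in LPS+PA-BSA libraries, against 21.2, 22.3 and 14.7 FPKM in controls. Control 3 was the lowest control and still above every LPS+PA-BSA library. The difference was -0.90 (SE 0.16, adjusted p = 0.00341), with -1.05 and -0.62 within the sets of 4 and 2, and it shrank to -0.42 after GC removal (adjusted p = 0.00147). Its partner Fnip1 averaged 22.8 ± 3.17 FPKM in LPS+PA-BSA and 20.9 ± 2.48 FPKM in control (difference 0.12, adjusted p = 0.462).

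**Figure D4:**
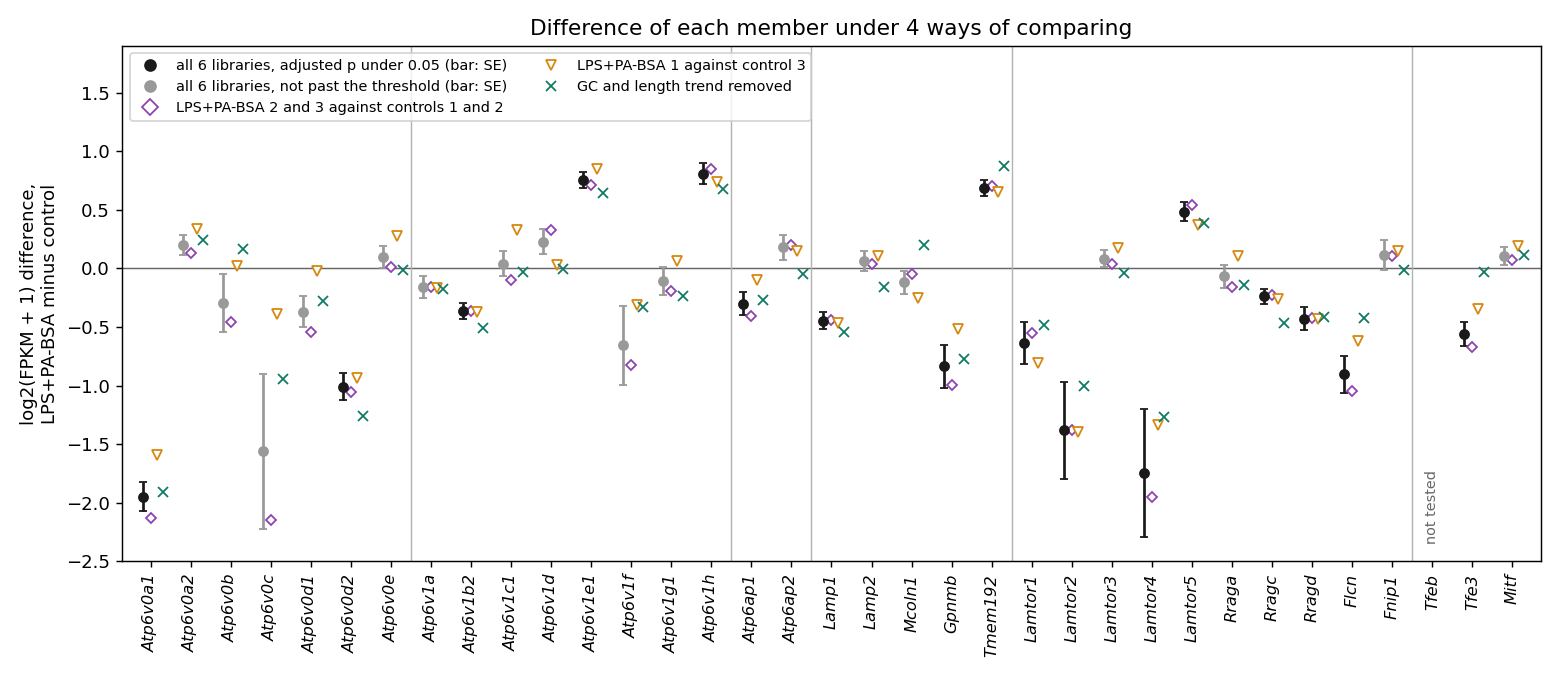
Difference of each gene on the log2(FPKM + 1) scale, LPS+PA-BSA minus control, from all 6 libraries (circles with SE, black where past the threshold), within the sets of 4 and 2 libraries (diamonds and triangles) and after GC and length removal (crosses). Atp6v0a1 at -1.95 and Atp6v0d2 at -1.01 lie below 0 and Atp6v1e1, Atp6v1h and Tmem192 above 0 in all 4 comparisons, while the crosses of Tfe3 and Flcn lie closer to 0 than their circles.

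Of the 3 MiT factors, 1 fell, 1 did not pass the threshold and 1 was too low to be tested. For comparison, 32.9% of all tested genes fell and 22.2% rose. Mitf, known from osteoclasts beside its lysosomal role, had 18.9, 16.7 and 18.5 FPKM in LPS+PA-BSA libraries, against 16.6, 16.9 and 16.4 FPKM in controls. Those values overlap between groups (difference 0.11, adjusted p = 0.257; 0.07 and 0.19 within the sets of 4 and 2, 0.12 after GC removal). Tfe3 had 11.1, 11.0 and 10.7 FPKM in LPS+PA-BSA libraries, against 18.2, 17.4 and 14.4 FPKM in controls, and control 3 was again the lowest control. Tfe3 fell by 0.56 (SE 0.10, adjusted p = 0.00392), with -0.67 and -0.34 within the sets of 4 and 2, but after GC removal the difference was -0.03 (adjusted p = 0.780), which ended the call. Tfeb was listed at 0.0404, 0.0932 and 0.315 FPKM in LPS+PA-BSA libraries, against 1.18, 1.60 and 0.316 FPKM in controls. It reached 1 FPKM in controls 1 and 2 alone and was therefore not tested, and its lowest control, control 3, barely exceeded LPS+PA-BSA 3. Without the filter on low values its difference was -0.77 (adjusted p = 0.102), and with transcripts of 61.6% GC it is the most GC-rich of the 35. Mitf made up 62.8%, 60.2% and 62.7% of Tfeb, Tfe3 and Mitf together in LPS+PA-BSA libraries, against 46.1%, 47.0% and 52.7% in controls. The groups did not overlap, with means of 61.9 ± 1.50% in LPS+PA-BSA and 48.6 ± 3.59% in control (exact permutation p = 0.1, two-sided, the smallest possible). The difference of 13.3 percentage points was 14.9 within the set of 4 libraries and 10.1 within the set of 2. The share was not recomputed after GC removal, which ended the call of Tfe3. Transcript GC content is 48.8% for Mitf and 56.4% for Tfe3.

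The promoters show which members carry the letters that MiT factors bind. RefSeq promoters (GRCm38.p6, the assembly of mm10, 250 bases before to 50 after a start) were found for 28 of the 35 genes, 35 promoters in all. The E-box CACGTG, which reads the same on both strands, stood in 10 of the 35 (28.6%), against 7.15% of all 32851 promoters of that length in the table. In all 10 it was part of the longer TCACGTG (searched on both strands), which 3.77% of all promoters hold. The full CLEAR element, TCACGTG with a G before it and AC after it, was in none of the members' promoters and in 0.326% of all. The M-box TCATGTG was in 8.57% of the members' promoters and 3.77% of all, the AP-1 motif TGANTCA in 8.57% and 7.81%, the CCAAT box in 40.0% and 37.4%, and the interferon-response motif, GAAA and GAAA with 2 bases between, in 5.71% and 3.44%, each searched on both strands. Of the 10 genes with the E-box, 4 fell (Lamp1, Lamtor1, Lamtor4 and Rragc) and 6 did not pass the threshold (Atp6v0b, Atp6v0d1, Atp6v0e, Atp6v1a, Mcoln1 and Fnip1). Of the 18 without it, 17 were tested, of which 3 rose and 7 fell. Over all tested genes 22.2% rose and 32.9% fell. The median difference was -0.27 for members with the E-box and -0.30 for those without it, and a link between E-box and direction was not tested. The promoters of the 4 genes that hold the E-box and fell follow, 5′ to 3′ on the gene's strand with CACGTG in capitals: Lamp1 (chr8:13158911-13159210, plus), Lamtor1 (chr7:101905587-101905886, plus), Lamtor4 (chr5:138255232-138255531, plus) and Rragc (chr4:123917183-123917482, plus). Beside them stand those of Atp6v1e1 (chr6:120822649-120822948, minus) and Tmem192 (chr8:64946935-64947234, plus), which rose and hold no CACGTG in this window.
Lamp1: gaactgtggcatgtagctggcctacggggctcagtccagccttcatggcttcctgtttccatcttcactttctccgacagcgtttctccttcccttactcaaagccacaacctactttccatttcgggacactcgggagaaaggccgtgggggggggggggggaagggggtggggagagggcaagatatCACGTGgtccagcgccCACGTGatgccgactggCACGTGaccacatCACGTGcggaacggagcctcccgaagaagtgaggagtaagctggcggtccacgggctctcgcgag
Lamtor1: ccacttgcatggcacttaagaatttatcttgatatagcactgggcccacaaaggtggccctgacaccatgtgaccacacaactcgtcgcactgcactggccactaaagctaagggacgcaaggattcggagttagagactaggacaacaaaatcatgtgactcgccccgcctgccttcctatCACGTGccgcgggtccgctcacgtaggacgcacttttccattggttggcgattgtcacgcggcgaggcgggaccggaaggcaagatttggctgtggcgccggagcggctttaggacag
Lamtor4: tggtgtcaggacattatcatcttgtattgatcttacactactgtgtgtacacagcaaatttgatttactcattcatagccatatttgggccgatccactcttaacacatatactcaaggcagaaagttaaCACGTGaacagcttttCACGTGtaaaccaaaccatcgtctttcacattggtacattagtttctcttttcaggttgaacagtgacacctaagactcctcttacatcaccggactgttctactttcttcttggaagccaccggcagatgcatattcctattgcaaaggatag
Rragc: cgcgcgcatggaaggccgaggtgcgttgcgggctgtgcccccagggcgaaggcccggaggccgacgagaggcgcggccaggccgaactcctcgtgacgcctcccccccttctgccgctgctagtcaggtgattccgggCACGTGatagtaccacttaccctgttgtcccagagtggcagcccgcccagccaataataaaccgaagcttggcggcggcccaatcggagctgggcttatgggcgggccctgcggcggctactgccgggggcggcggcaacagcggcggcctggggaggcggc
Atp6v1e1: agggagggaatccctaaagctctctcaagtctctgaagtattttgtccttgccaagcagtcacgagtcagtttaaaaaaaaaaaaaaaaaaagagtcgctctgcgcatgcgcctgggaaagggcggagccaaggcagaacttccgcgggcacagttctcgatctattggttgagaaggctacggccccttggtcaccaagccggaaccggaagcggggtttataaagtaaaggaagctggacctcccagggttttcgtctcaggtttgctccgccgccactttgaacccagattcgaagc
Tmem192: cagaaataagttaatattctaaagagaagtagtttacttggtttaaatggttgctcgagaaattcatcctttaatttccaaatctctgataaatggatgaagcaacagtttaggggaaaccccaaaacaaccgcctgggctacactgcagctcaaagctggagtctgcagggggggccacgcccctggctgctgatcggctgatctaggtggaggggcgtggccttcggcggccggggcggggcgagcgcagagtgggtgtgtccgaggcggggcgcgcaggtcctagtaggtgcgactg

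The Lamp1 promoter holds 4 copies of CACGTG, starting 61, 45, 28 and 15 bases before the gene's start, the most of any member. Lamtor4 holds 2, at 120 and 104 bases before the start, Lamtor1 holds 1 at 68 and Rragc 1 at 112. A match is a description of the letters and was not tested as a binding site.

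Other genes of the same pathways were counted from lists drawn up beside the 35. Of 12 tested other subunits, assembly factors and regulators of the pump (18 of 20 found), 1 rose and 4 fell, with a median of -0.24. Tmem199, an assembly factor, rose to 13.6 ± 0.933 FPKM in LPS+PA-BSA, against 7.96 ± 0.308 FPKM in control (difference 0.70). Rogdi (-1.71) and Wdr7 (-0.86), parts of the RAVE-like complex that rejoins V1 to V0, fell, Rogdi by 1.06 after GC removal. Rnasek (-0.93), a small V0-associated protein, also fell, but after GC removal it was at -0.57 (adjusted p = 0.165), and its call also ended without control 1. The other isoforms Atp6v0a4, Atp6v0e2, Atp6v1b1, Atp6v1c2 and Atp6v1e2 had means under 1 FPKM in both groups.

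Of 35 tested other lysosome membrane proteins, 5 rose and 17 fell, with a median of -0.28. Slc15a3, a transporter of histidine and bacterial dipeptides, rose to 175 ± 12.5 FPKM in LPS+PA-BSA, against 36.9 ± 1.12 FPKM in control (difference 2.22). Mcoln2 rose by 1.50 and Mcoln3 fell by 1.68, both relatives of Mcoln1: Mcoln2 averaged 82.9 FPKM in LPS+PA-BSA and 28.6 FPKM in control, and Mcoln3 3.84 FPKM in LPS+PA-BSA and 14.4 FPKM in control. Clcn7, the chloride-proton exchanger that works beside the pump, rose to 144 ± 5.67 FPKM in LPS+PA-BSA, against 68.3 ± 4.07 FPKM in control (difference 1.06). The calcium and sodium channel Tpcn1 fell to 1.07 ± 0.186 FPKM in LPS+PA-BSA, against 13.0 ± 4.78 FPKM in control (difference -2.69), and the sialic acid transporter Slc17a5 to 6.20 ± 0.584 FPKM in LPS+PA-BSA, against 19.7 ± 2.13 FPKM in control (difference -1.52).

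Of 28 tested other genes of mTORC1 docking and nutrient sensing, 2 rose and 12 fell, with a median of -0.30. After GC removal 8 were called higher and 7 lower, with a median of -0.05. Over all tested genes GC removal gave 28.4% called higher and 31.6% lower, with a median of -0.04, where 22.2% and 32.9% were called without it. Calls higher thus grew in number over all tested genes as well as in this list. Sesn1, a leucine-sensing inhibitor of mTORC1, had the largest difference: it fell to 3.02 ± 0.258 FPKM in LPS+PA-BSA, against 39.5 ± 2.13 FPKM in control (difference -3.33, adjusted p below that of any of the 35). Castor1, the arginine sensor, fell by 1.19 and Deptor, an inhibitory mTOR partner, by 1.11. After GC removal Castor1 differed by -0.66. Rheb rose to 7.47 ± 0.496 FPKM in LPS+PA-BSA, against 4.63 ± 0.526 FPKM in control (difference 0.59), and Seh1l, a GATOR2 and nuclear pore subunit, rose by 0.34 (0.20 after GC removal) in a call that ended without any 1 of 4 libraries, LPS+PA-BSA 1 and 3 and controls 1 and 2.

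Of 24 tested MiT regulators and textbook targets, among them Mcoln1, which is also 1 of the 35, 7 rose and 8 fell, with a median of -0.07. The fourth MiT factor, Tfec, a macrophage and osteoclast gene, rose to 11.3 ± 0.513 FPKM in LPS+PA-BSA, against 2.52 ± 0.268 FPKM in control (difference 1.81). Sqstm1, the autophagy receptor p62, rose to 835 ± 114 FPKM in LPS+PA-BSA, against 261 ± 36.4 FPKM in control (difference 1.67), and Clcn7, given above, is in this list too. The lysosomal enzymes Sgsh, which removes sulfate from heparan sulfate, and Hexa, a subunit of beta-hexosaminidase, fell by 2.35 and 1.14. Vps18, a tethering factor of the HOPS complex, fell by 1.66, but was at -0.996 after GC removal (adjusted p = 0.0705), and the call ended without LPS+PA-BSA 1 or 2 or control 1 or 2. These counts are descriptions beside the 22.2% higher and 32.9% lower over all tested genes, and no list was tested as a set.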

How the data were processed

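Poly(A) RNA was made into strand-marked (dUTP) paired-end libraries for an Illumina NovaSeq, per the labels' protocols. The authors deposited FPKM values for 29957 genes, 1 column per library, with a fold change equal to the ratio of the group means, its log2, p-values, q-values and a significance mark, per the file headers. Named in the submitters' processing notes, with no role or order, are the build mm10 and the tools StringTie 2.1.6, HISAT2 2.2.1, edgeR, DESeq2 and cutadapt 1.9. The annotation, the strand setting of counting and the tool behind the p-values are not given in the sources used here. The authors' p-value and q-value columns were not used as a test here, and their marks are quoted only as such. FPKM are relative to each library's total.

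The deposited FPKM are not counts, so log2(FPKM + 1) was fitted with limma 3.58.1 (R 4.3.3, variance trend, two-sided) for the 11364 genes that reached 1 FPKM in no fewer than 3 of the 6 libraries. This scale understates the change of low genes. Tfeb missed the filter. Paralog shares were compared with exact permutation tests. Python 3.11.15 was used for tables and figures. The fit was tested on simulated data.

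Depths from steps of 1 fragment (tolerance 0.5%) ran from 13.9 to 21.1 M fragments, where 1 fragment in a 1 kb transcript was worth 0.0474 to 0.0722 FPKM. They cover counting error only. No libraries held identical values, and replicates differed by more than sampling noise.

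GENCODE M21 (mm10), which holds 29871 of the gene IDs, gave coordinates, GC content and overlaps. Exons of 8 members overlap a gene on the other strand; of those partners found in the table, only Lrrc51, beside Lamtor1, reached 1 FPKM in any library. Sets of libraries were formed by the sign of each library's GC slope within its group, and loess trends (span 0.3) on GC and length were removed in the GC alternative.

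The members and all lists were chosen with earlier results of these data known. Every member is named. Values in every library are given for members called with a difference of at least 0.5 (log2), for the largest in each role group and for the MiT factors. From each other list the 3 largest rises and falls past the threshold are named. Alternatives changed the pseudocount, filter, scaling, variance trend, replicate block, GC trend, a term for the sets and the libraries left out. The term with LPS+PA-BSA 2 in the other set was added after the data were seen.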

Additional observations from a re-analysis of the deposited data

How the results depend on the processing

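No called member changed sign under any alternative tried. Pseudocounts of 0.1 and 0.5, a filter on the mean and a fit with no variance trend left the members at 4 higher and 13 lower. Equal library medians gave 9 higher and 8 lower, and gained Atp6v0a2, Atp6v0e, Atp6v1d, Lamtor3 and Mitf while losing Atp6v1b2, Atp6ap1, Lamp1, Rragc and Rragd. Without the filter on low values 9 were called lower. With a term for the 2 sets 17 were called lower and 6 higher. Over all tested genes, equal medians also gave more calls higher than lower. The set term there gave more calls in both directions than the fit without it. Leaving out 1 library at a time gave 4 to 5 members higher and 8 to 17 lower. Over all tested genes it gave 2007 to 2778 higher and 2765 to 4273 lower. Libraries with the same replicate number did not deviate together (correlations of -0.47, 0.09 and -0.59). Their GC slopes had opposite signs for replicates 1 and 3 and the same sign for replicate 2, as the correlations do. The correlations therefore cannot decide whether the replicate numbers pair libraries. A replicate block gave 8 lower members, without Atp6ap1, Lamtor1, Lamtor2, Lamtor4 and Rragc. Among the other lists, pump genes called higher numbered 2 under quantile normalization, equal medians and the set term, 3 after GC removal with or without the block, and 1 to 2 with a library left out. Lysosome membrane genes called lower numbered 10 with equal medians. The mTORC1 genes called higher numbered 4 under quantile normalization and equal medians, 8 after GC removal, 6 with the block and GC removal, 1 with the replicate block and 1 to 2 with a library left out; those called lower numbered 7 after GC removal, 6 with the block added, and 7 to 14 with a library left out. MiT-list genes called lower numbered 5 without the filter and with the block and GC removal. With all libraries kept, these list counts moved in the same direction as the calls over all tested genes. GC removal, for example, gave 28.4% of all tested genes called higher, against 22.2% without it. The exception was the fit without the filter, where calls lower grew in number over all genes. The direction of the other moves is therefore not particular to the lists, and their size was not compared. Within the set of 2 libraries the share of Atp6v0d2 differed by -15.5 and that of Mitf by 10.1 percentage points. Beyond the alternatives' own construction (fewer samples, more genes tested), the cause of these shifts was not tested. At these depths, values of short transcripts under 1 FPKM, such as Tfeb in LPS+PA-BSA, rest on few fragments.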
